A study of Rattus norvegicus with 6 samples.

Results

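The genes described here encode the extracellular matrix of the kidney and the proteins that build and remodel it, 37 in all, chosen by name. Probes were assigned through the accession each carries on the array, and 30 of the 37 genes had at least 1 matched probe (54 probes), against 15645 genes with a symbol on the whole array. No matched probe was found for Col5a2, Col6a1, Col4a2, Col4a3, Lamb1, Nid1 and Lox, which are not analysed here. Of the 30, 28 were bright enough to be tested, among 28961 tested features.

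The animals were male Sprague-Dawley rats (Crl:CD(SD)) purchased when 5 weeks old, and RNA was taken from their renal cortex. The control group, 3 rats, was given corn oil during 4 weeks, and the treated group, also 3, was given 1,2-dibromoethane, a halogenated solvent and former fumigant, at 75 mg/kg/day over the same span. Each rat gave 1 single-colour array. The strain is outbred, and bulk cortex mixes tubule, glomerular, vascular and interstitial cells, so that fewer cells of a type and less RNA per cell cannot be told apart. Levels are log2 signals relative to the array's 75th percentile, and differences are treated minus control on the log2 scale.

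The interstitial matrix consists of fibrillar collagens made mainly by fibroblasts and other stromal cells, with proteoglycans and glycoproteins that bind them. Basement membranes, which lie under tubule cells and between the capillaries and podocytes of the glomerulus, are sheets of laminin and type IV collagen joined by nidogens. Matrix metalloproteinases cut these proteins, tissue inhibitors of metalloproteinases restrain them, and TGF-beta is the best known inducer of matrix genes in renal fibrosis.

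By their headers the 6 arrays were spread over 3 slides. The first carried dibromoethane replicate 2 with control replicates 1 and 2, the second carried dibromoethane replicate 1 with control replicate 3, and the third carried only dibromoethane replicate 3. Slide 2 was scanned on a different day from slides 1 and 3. Between 59.2% and 67.8% of probes were well above background, and 0 were saturated. All 9 proximal tubule markers in the marker list were well above background on all 6 arrays. Having only 3 arrays in a group limits the precision.

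None of the 28 tested matrix genes passed an adjusted p of 0.05 in limma, where 9 of 28961 features (0.0311%) did, 0.0242% of all features with higher and 0.00691% with lower levels in treated rats. At an unadjusted p under 0.05 in limma stood 4 of the 28, or 14.3%, against 11.1% of all features. These were the collagen gene Col1a1, the small proteoglycan gene Dcn and the gelatinase gene Mmp2, with higher levels in treated rats, and the basement membrane collagen gene Col15a1, with lower levels. The higher 3 compare with 4.53% of all features, and the lower 1 with 6.62%. In 7 of the 28 (25.0%) the groups did not overlap, against 19.5% of all features. Treated arrays were the higher in 5 of these (7.38% of all features) and the lower in 2 (12.1% of all features). The shares of 14.3% and 25.0%, both directions together, lie near the background. By direction, the 3 and 5 higher genes stand above their shares of all features and the 1 and 2 lower genes below. Such small counts were not tested. The 7 without overlap fell to 5 with quantile normalization (18.6% of all features) and with the deposited series table (19.5%). The median difference was -0.02 over the matrix genes, with 12 positive and 16 negative (15 and 13 with quantile normalization), and -0.02 over all features, of which 46.4% were positive.

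The 95% intervals show what 3 arrays per group could and could not resolve. For 24 of the 28 genes the interval lay within a 2-fold change either way, and for 22 within 1.5-fold. The 4 whose interval reached past 2-fold were Dcn, Mmp2, Col15a1 and Ctgf. Standard errors ran from 0.07 for Bgn to 0.35 for Dcn.

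**Figure D1:**
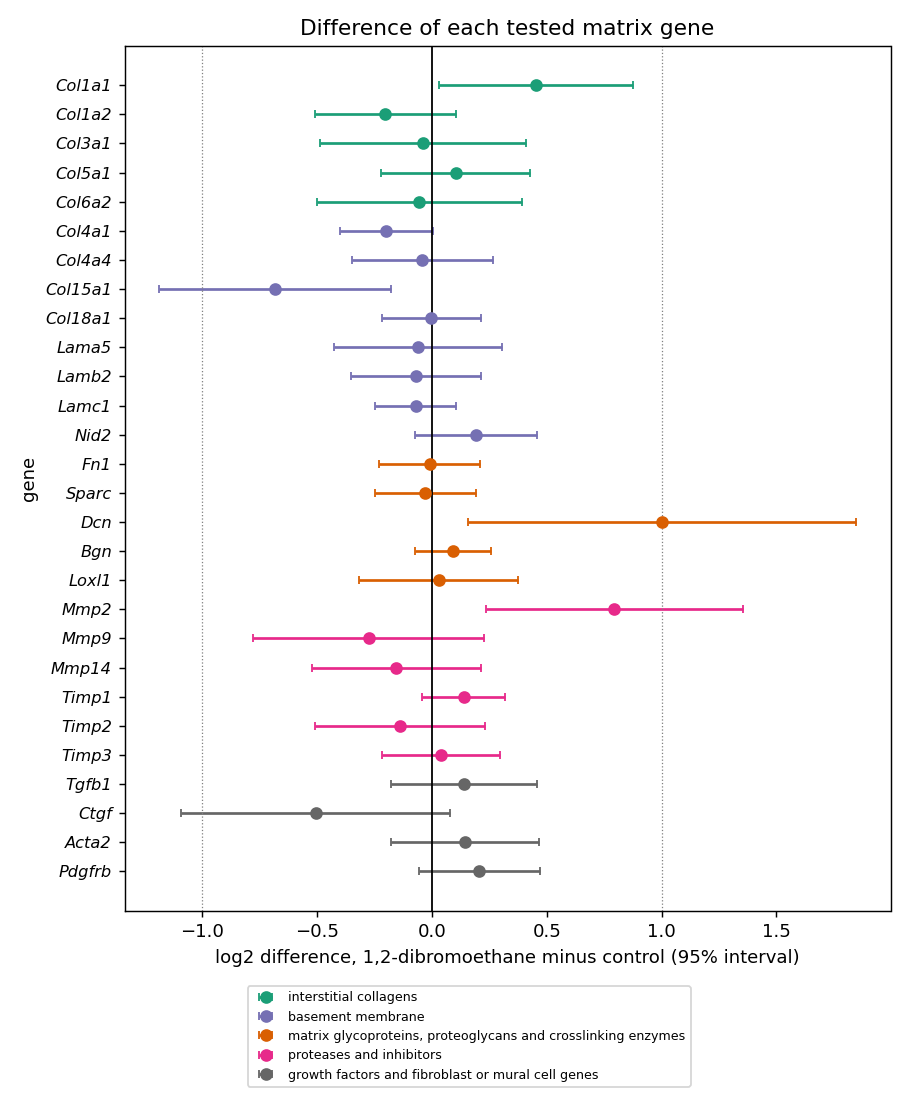
Log2 difference (1,2-dibromoethane minus control, 3 arrays each) of each of the 28 tested matrix genes on the horizontal axis, with limma's 95% interval as a bar and the role group as the colour; dotted lines mark 2-fold. Most intervals span 0 and stay within 2-fold, while those of Dcn, Mmp2 and Col1a1 lie above 0 and that of Col15a1 below it.

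Among interstitial collagens 5 of 7 genes were tested, with a median difference of -0.04 and a range from -0.20 to 0.45. Col1a1 encodes the alpha 1 chain of type I collagen, the main fibrillar collagen of scar. Its control arrays read 0.78, 0.79 and 1.36 for replicates 1 to 3, and its dibromoethane arrays 1.54, 1.36 and 1.39. The first 2 controls were low, while control replicate 3 lay at the level of the treated arrays and below the lowest of them only in a decimal too small to print. The means were 0.98 ± 0.33 (SD, n = 3) in controls and 1.43 ± 0.09 (SD, n = 3) in treated rats, a difference of 0.45 (SE 0.17, limma adjusted p = 0.427). Its difference was 0.58 within slide 1 and 0.18 within slide 2. The gene's other probes gave 0.63 and 0.21.

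Col1a2 encodes the partner chain, of which each type I collagen molecule holds a single copy beside a pair of alpha 1 chains. Its levels were 3.63, 3.81 and 3.99 in controls and 3.77, 3.55 and 3.50 in treated rats. The groups overlapped, with a difference of -0.20 (SE 0.13, limma adjusted p = 0.571), and the sign was opposite to that of Col1a1.

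Col3a1, whose type III collagen accompanies type I in the interstitium, read 1.32, 1.57 and 1.92 in controls and 1.81, 1.43 and 1.44 in treated rats. The difference was -0.04 (95% interval -0.49 to 0.41), with both groups spread over much the same range. Col5a1, a chain of the collagen that seeds type I fibrils, had a difference of 0.10 (interval -0.22 to 0.43). Col6a2, a chain of the beaded filament collagen, had one of -0.05 (interval -0.50 to 0.39). Control replicate 3 was the highest control for all 5 interstitial collagens and the highest of all 6 arrays for 4 of them, Col1a1 being the exception.

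Basement membrane genes were tested for 8 of 12, with a median of -0.07. The difference was negative for 7 of the 8, where 46.4% of all features were positive. Median centring, which lowered every difference alike, also gave 7 and could not have given fewer. Quantile normalization gave 6, with Col18a1 positive at 0.016. With slide as a fixed block Col4a4 (0.073), Col18a1 (0.032) and Lama5 (0.063) turned positive. Col15a1 showed the lowest difference of all matrix genes. It encodes a collagen found where basement membranes meet the interstitium, around capillaries and tubules. Its control arrays read 0.10, 0.23 and 0.81, and its dibromoethane arrays -0.09, -0.39 and -0.42. Every treated array lay below every control. The means were 0.38 ± 0.38 (SD, n = 3) and -0.30 ± 0.18 (SD, n = 3), a difference of -0.68 (SE 0.21, limma adjusted p = 0.365). The difference was -0.56 within slide 1 and -0.90 within slide 2, and the second probe gave -0.60.

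Because Col15a1 stood lowest, its RefSeq promoter window of 300 bases around the annotated start is shown (GRCr8, chr5:66297296-66297595, plus strand), with the match to CAGACA, a SMAD-type element searched on both strands, in capitals.
Col15a1: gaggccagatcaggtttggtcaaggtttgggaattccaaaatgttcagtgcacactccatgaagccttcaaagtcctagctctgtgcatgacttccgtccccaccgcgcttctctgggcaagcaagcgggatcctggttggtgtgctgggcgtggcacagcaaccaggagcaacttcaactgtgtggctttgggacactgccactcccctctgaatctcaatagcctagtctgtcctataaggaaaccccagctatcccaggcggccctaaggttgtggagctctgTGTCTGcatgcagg

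The window holds 1 such match. CAGACA occurs in 5 of the 24 matrix gene promoters in the table (20.8%) and in 21.1% of all 33469 promoters, and a match of letters is not a binding site.

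Col4a1 encodes the most widespread chain of type IV collagen, the scaffold of basement membranes. Its control arrays read 4.42, 4.50 and 4.51 and its dibromoethane arrays 4.16, 4.37 and 4.30, again without overlap. The difference was -0.20 (SE 0.08, limma adjusted p = 0.451), with -0.09 within slide 1 and -0.35 within slide 2. The gene's 4 probes all had negative values, from -0.29 to -0.04.

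Col4a1 and Col4a2 are transcribed away from each other from a shared region. Their RefSeq promoter windows overlap by 176 bases on opposite strands (plus for Col4a1, minus for Col4a2), and since Col4a2 had no matched probe the Col4a1 window stands for the pair (GRCr8, chr16:84885347-84885646, plus strand). Matches to the GC box GGGCGG and to CCAAT, on either strand, are in capitals.
Col4a1: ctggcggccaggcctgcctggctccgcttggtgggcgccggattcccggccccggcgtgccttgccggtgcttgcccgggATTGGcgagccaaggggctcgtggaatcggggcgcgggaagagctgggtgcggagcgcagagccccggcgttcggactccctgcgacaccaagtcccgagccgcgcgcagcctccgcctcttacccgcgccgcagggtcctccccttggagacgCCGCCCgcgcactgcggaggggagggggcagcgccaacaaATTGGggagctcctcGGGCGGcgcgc

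The window holds 2 matches to the GC box and 2 to CCAAT, which do not overlap. A GC box was found in 13 of the 24 matrix gene promoters (54.2%) and in 33.1% of all promoters, and CCAAT in 6 of the 24 (25.0%) and in 37.5% of all.

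Apart from Nid2, the remaining basement membrane genes lay close to 0 by their brightest probe. Col4a4, a chain of the mature glomerular basement membrane, had a difference of -0.04 (interval -0.35 to 0.26). Col18a1, the source of endostatin, had one of -0.0027 (interval -0.22 to 0.21). The laminin chain genes Lama5, Lamb2 and Lamc1, which together encode the main laminin of the adult kidney glomerulus, had differences of -0.06, -0.07 and -0.07. For Lamc1 the interval ran from -0.25 to 0.10, and its dimmer probes gave 0.06 and -0.45. Nid2, a nidogen that links laminin to type IV collagen, was the single positive value at 0.19 (SE 0.11), and its dimmer probe gave 0.97.

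**Figure D2:**
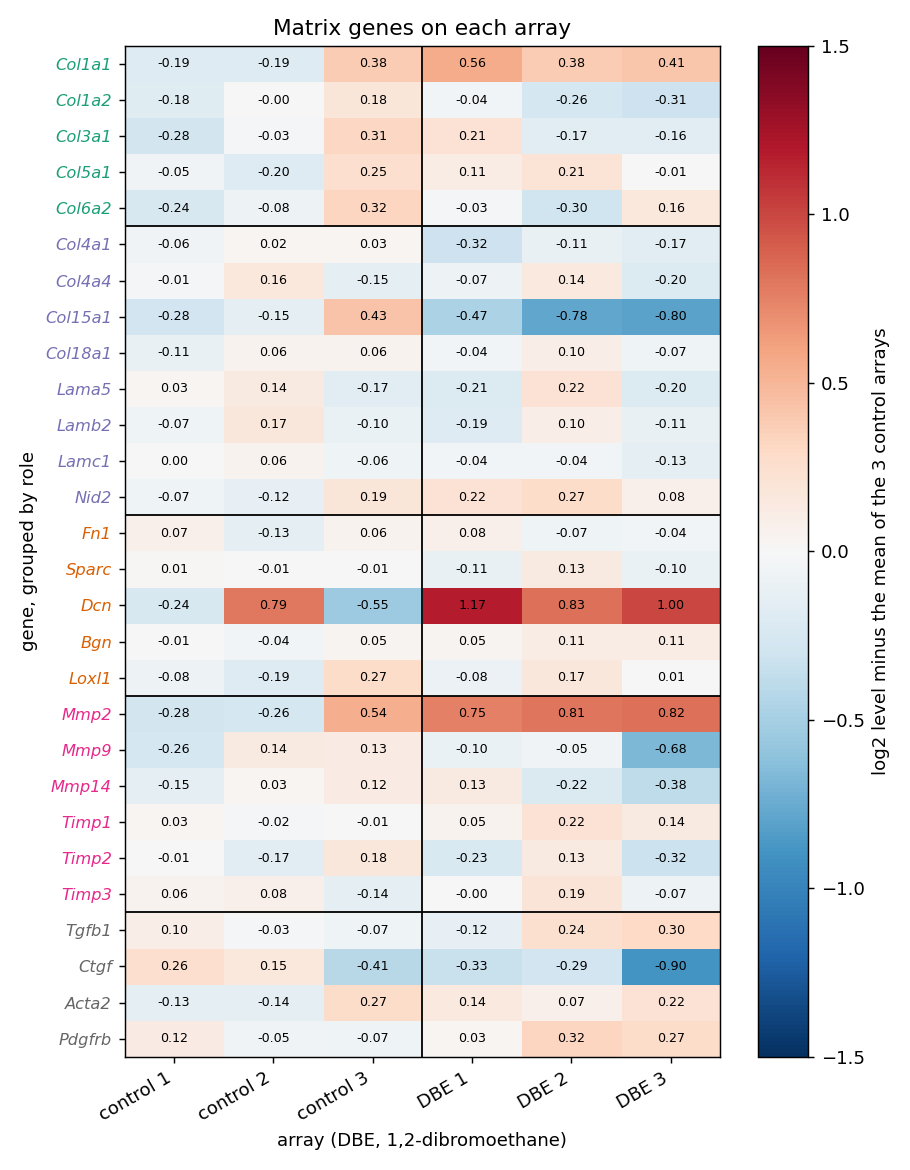
Level of each tested matrix gene on each array, as the log2 level minus the mean of that gene's 3 control arrays, with genes in rows by role and the 6 arrays in columns (DBE, 1,2-dibromoethane). Most rows are pale, Dcn and Mmp2 are high on all 3 treated arrays, Col15a1 is low on them, and control replicate 3 differs from the other controls in Col1a1 and Mmp2.

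Matrix glycoproteins, proteoglycans and crosslinking enzymes were tested for 5 of 8 genes, with a median of 0.03. Dcn encodes decorin, a small proteoglycan that coats collagen fibrils and binds TGF-beta, and is a marker of fibroblasts. Its control arrays read 1.82, 2.86 and 1.52 and its dibromoethane arrays 3.24, 2.90 and 3.07. The treated arrays were close together while control replicate 2 stood far above the other controls, just under the lowest treated array. The means were 2.07 ± 0.70 (SD, n = 3) and 3.07 ± 0.17 (SD, n = 3), a 2.00-fold difference of 1.00 (SE 0.35, limma adjusted p = 0.396). It was 0.56 within slide 1 and 1.72 within slide 2. Without control replicate 2 the value was 1.40, and over all alternatives it ran from 0.73 to 1.40. The gene had a single probe.

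Bgn encodes biglycan, the close relative of decorin. Its levels were 5.18, 5.14 and 5.23 in controls and 5.23, 5.30 and 5.30 in treated rats. The groups touched without overlapping, for a difference of 0.09 (interval -0.07 to 0.26). Its dimmer probe gave -0.33, so the sign depends on the probe.

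Fn1 encodes fibronectin, an early component of provisional and fibrotic matrix. It read 1.60, 1.40 and 1.58 in controls and 1.61, 1.46 and 1.48 in treated rats. The groups covered the same range, with a difference of -0.01 and an interval of -0.23 to 0.21, which lies within 1.5-fold. Its other probes gave 0.13 and -0.27. Sparc, a collagen-binding matricellular gene, had a difference of -0.03 (interval -0.25 to 0.19), positive with quantile normalization at 0.06. Loxl1, an enzyme that crosslinks elastin, had one of 0.03 (interval -0.32 to 0.38).

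The fibroblast genes Lum and Postn were too dim to test. Lum, the proteoglycan lumican, was well above background on 0 of 6 arrays. Postn, periostin, an injury-induced matricellular protein, was well above it on 1 control and 1 treated array, at -3.53 in control replicate 1 and -4.18 in dibromoethane replicate 3, while the other arrays lay between -7.66 and -6.33.

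Proteases and inhibitors were all tested, 6 of 6, with a median of -0.05 and values on both sides of 0. Mmp2, a gelatinase that cuts denatured and basement membrane collagen, had the smallest p of the 28. Its control arrays read 0.61, 0.62 and 1.43 and its dibromoethane arrays 1.64, 1.69 and 1.71. The treated arrays were nearly equal and the spread lay in the controls, where replicate 3 was much nearer to the treated level than to the other controls. The means were 0.88 ± 0.47 (SD, n = 3) and 1.68 ± 0.04 (SD, n = 3), a 1.73-fold difference of 0.79 (SE 0.23, limma adjusted p = 0.359). It was 1.08 within slide 1 and 0.21 within slide 2. Its second probe gave 0.69. Without control replicate 3 the difference was 1.06 (limma adjusted p = 0.0771, the lowest over all alternatives, which ran up to 0.823).

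Mmp14, the membrane protease that activates pro-gelatinase A, had a difference of -0.16 (interval -0.52 to 0.21) and -0.19 from its other probe. Timp2, the inhibitor that takes part in that activation, had one of -0.14 (interval -0.51 to 0.23). Mmp9, the other gelatinase, had a value of -0.28 (interval -0.78 to 0.23). Timp1, an inhibitor often induced in injured kidney, read 1.15, 1.101 and 1.11 in controls and 1.17, 1.34 and 1.26 in treated rats. All treated arrays lay above all controls, but by little, a difference of 0.14 (SE 0.07, limma adjusted p = 0.530). Timp3, which binds to the matrix itself, had a value of 0.04 (interval -0.22 to 0.30).

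**Figure D3:**
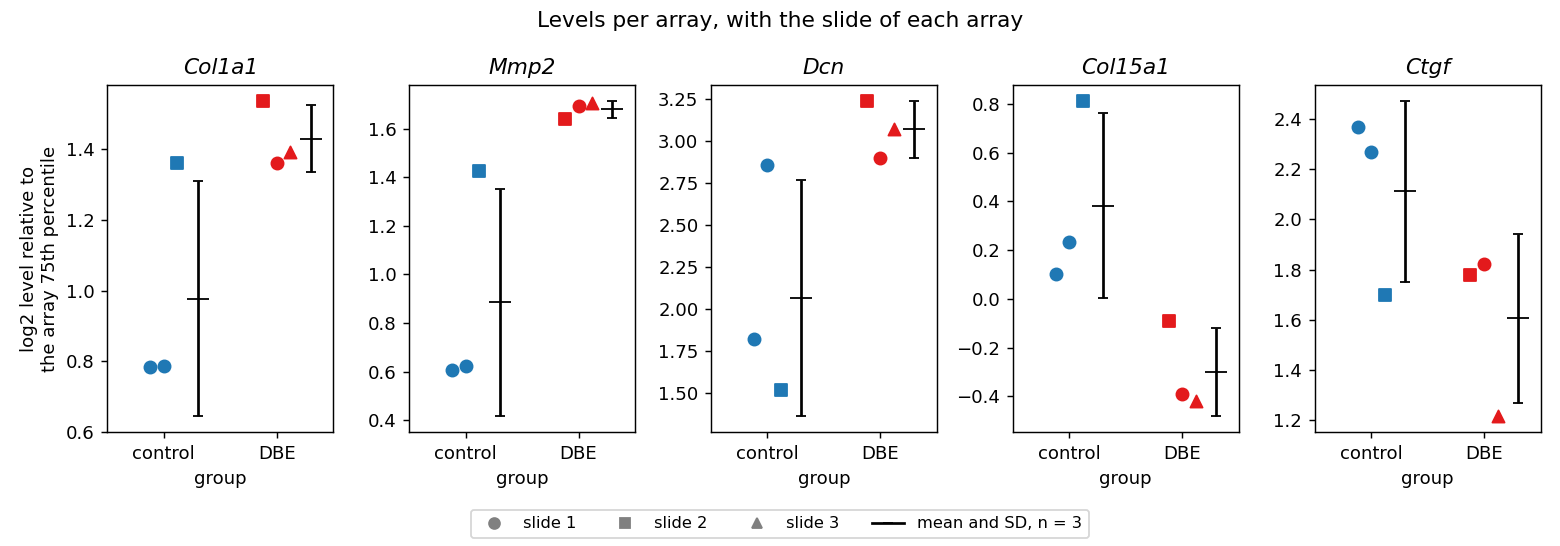
Log2 level relative to the array's 75th percentile (vertical axis, a separate scale per gene) for 5 matrix genes on 3 control and 3 1,2-dibromoethane (DBE) arrays, with the slide as the symbol and group mean ± SD in black. On slide 2 the control and treated arrays are close for Col1a1, Mmp2 and Ctgf and far apart for Dcn and Col15a1.

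Growth factor, fibroblast and mural cell genes were tested for 4 of 4, with a median of 0.14. Tgfb1, the TGF-beta isoform tied to fibrosis, read -2.22, -2.36 and -2.39 in controls and -2.44, -2.08 and -2.02 in treated rats. The groups overlapped, with a difference of 0.14 (interval -0.18 to 0.46). Ctgf, a matricellular target of TGF-beta and of mechanical signals, listed in RefSeq as Ccn2, read 2.37, 2.27 and 1.70 in controls and 1.78, 1.82 and 1.22 in treated rats. Control replicate 3 was again away from the other controls and within the treated range. The difference was -0.51 (SE 0.24, limma adjusted p = 0.485), with -0.50 on the first slide, 0.08 on the second, and -0.25 in a fit with a slide term.

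Acta2, the smooth muscle actin of vessel walls and myofibroblasts, read -1.40, -1.41 and -0.99 in controls and -1.13, -1.20 and -1.05 in treated rats. Its treated arrays lay between the controls, for a difference of 0.14 (interval -0.18 to 0.47). Pdgfrb, the receptor of pericytes, mesangial cells and fibroblasts, read 0.31, 0.14 and 0.13 in controls and 0.22, 0.51 and 0.47 in treated rats. Its difference was 0.21 (SE 0.11, limma adjusted p = 0.519) and 0.22 from its second probe.

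Set side by side, the median differences were -0.04 for interstitial collagens, -0.07 for basement membrane genes and -0.05 for proteases and inhibitors, beside -0.02 over all features. The sign of such small medians depended on single arrays and on slide. That of interstitial collagens was 0.12 without control replicate 3, 0.05 with dibromoethane replicate 2 left out and 0.02 with its replicate 3 left out, that of basement membrane genes was 0.01 without control replicate 2, and that of proteases and inhibitors was 0.03 without dibromoethane replicate 3. With slide as a block the medians were -0.05, 0.0097 and 0.04 for these groups, in that order, and 0.03 over the 28 genes. On slide 1 the median over the 28 genes was 0.13 and on slide 2 it was -0.04. The sign was the same on both slides for 14 of the 28 genes, or 50%, and for 63.1% of all features. Of the 28 genes, control replicate 3 was the highest array for 9 and dibromoethane replicate 3 the lowest for 8.

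Of the 30 genes, 17 had several probes that were above background on all arrays. In 12 of these all such probes had the same sign, among them Col1a1, Col15a1, Col4a1 and Mmp2. Col5a1 is one of the 12, but a further probe of it, above background on 5 of 6 arrays, gave -1.10 against 0.10 and 0.18. In Bgn, Col4a4, Fn1, Lamc1 and Loxl1 the probes had both signs.

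**Figure D4:**
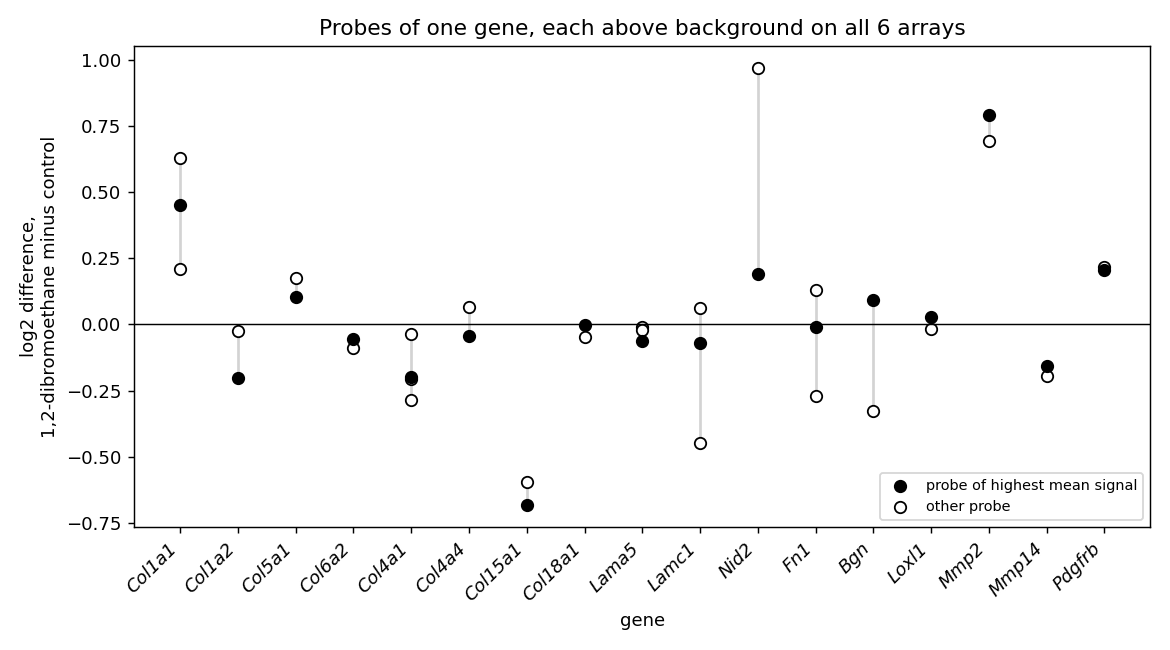
Log2 difference (1,2-dibromoethane minus control) of every probe of the 17 matrix genes with several probes above background on all 6 arrays, with the brightest probe filled and grey lines joining the probes of a gene. The probes of Mmp2 (0.79 and 0.69) and Col15a1 (-0.68 and -0.60) lie close together. Those of Nid2, Lamc1, Bgn (-0.33 to 0.09), Col1a1 (0.21 to 0.63) and Fn1 (-0.27 to 0.13) are farther apart.

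The wider matrix pathway was followed through 9 further lists with 111 tested genes. Of these, 0 passed an adjusted p of 0.05 in limma, and 19 stood at an unadjusted p under 0.05, 13 positive and 6 negative, or 17.1%, against 11.1% of all features (4.53% higher and 6.62% lower). Their median was 0.01. The groups did not overlap in 21 (18.9%), against 19.5% of all features. Some genes entered only through the group in which they were bright. Over the 105 well above background on all 6 arrays, 11 were positive and 6 negative at an unadjusted p under 0.05 in limma (16.2%), against 11.4% of all features so filtered.

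Other matrix proteases and inhibitors held 3 positive values at an unadjusted p under 0.05 in limma among the 18 genes well above background on all 6 arrays, where 4.58% of all features so filtered were positive. Mmp12, the macrophage elastase, was outside these, being above background on 2 of 3 control and 3 of 3 treated arrays. It read -5.04, -4.67 and -5.27 in controls and -3.30, -3.98 and -4.07 in treated rats, and since it was tested only through the treated group these levels are given as a description. Mmp23 had one of 0.41 (SE 0.09) and Mmp11, stromelysin 3, one of 0.62 (SE 0.19). Beside Mmp12, the macrophage markers gave a median of -0.09 over 6 tested genes of 7, with a mean level of 0.37 to 0.46 on control and 0.14 to 0.50 on treated arrays, and Cd163 was not above background on any array. Of the 6 tested macrophage markers 2 had a positive and 4 a negative difference, with C1qb at -0.48 (SE 0.09) and C1qa at -0.54 (SE 0.13). The part of the macrophage markers in the value of Mmp12 was not tested.

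Collagen processing enzymes held 1 positive and 4 negative values at an unadjusted p under 0.05 in limma among 13 tested (4.53% and 6.62% of all features), with a median of -0.11. Plod1, a lysyl hydroxylase, had a difference of -0.33 (SE 0.09). P3h1, a prolyl hydroxylase, had one of -0.44 (SE 0.13), and Bmp1, the protease that removes the procollagen C-propeptide, one of -0.30 (SE 0.09). The adjusted p was 0.359 to 0.362 for these in limma.

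Fibroblast and mural cell markers held 2 positive values at an unadjusted p under 0.05 in limma among the 13 genes well above background on all 6 arrays (4.58% of all features so filtered), with a median of 0.04. Gli1, a hedgehog effector and marker of perivascular mesenchymal cells, was well above background on 0 of 3 control arrays and 3 of 3 treated arrays. Against the lowest signal above background its treated level was at least 2.01-fold higher, and no test is drawn from it, since it was tested only through the treated group. Thy1, a fibroblast surface protein, had a difference of 0.42 (SE 0.12), and Tagln, a smooth muscle protein, one of 0.67 (SE 0.23). Over the 14 tested genes of the list, Gli1 included, 9 had a positive and 5 a negative difference. Cnn1 and Fap were above background on no array. The part of fibroblasts and mural cells in the values of Dcn, Mmp2 and Col1a1 was not tested. The renal capsule and smooth muscle list had 3 of 5 genes tested. Its mean level ran from -0.24 to 0.26 on control and from 0.18 to 0.37 on treated arrays. The differences were 0.56 (SE 0.19) for Actg2, 0.19 (SE 0.18) for Myh11 and 0.04 (SE 0.16) for Des. Myh11 and Des are also in the list of fibroblast and mural cell markers.

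In the TGF-beta pathway 1 of 15 tested genes stood at an unadjusted p under 0.05 in limma, against 11.1% of all features. It was Inhba, the activin beta A subunit (0.37, SE 0.11). Tgfbr1, the type I receptor, had a difference of -0.14 (SE 0.07) and Smad4, the common mediator, one of -0.11 (SE 0.12). Among matrix receptors 3 of 11 stood at an unadjusted p under 0.05 in limma, 1 positive and 2 negative, against the same 11.1%. Itga6, the alpha chain of laminin-binding integrins, had a difference of -0.50 (SE 0.095, limma adjusted p = 0.247), with -0.46 within slide 1 and -0.47 within slide 2. Itga5, of the fibronectin receptor, had one of 0.37 (SE 0.11) and Cd44, the hyaluronan receptor, one of -0.38 (SE 0.15).

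Against that background of 11.1%, elastic fibre and microfibril genes held 1 of 14, the fibulin gene Efemp2 (0.40, SE 0.09, limma adjusted p = 0.306), with a median of -0.0052 over the list. Ltbp2 and Ltbp4, members of the latent TGF-beta binding protein family, had differences of -0.37 (SE 0.17) and 0.27 (SE 0.14). Other collagens held 1 of 4, Col8a1 (0.36, SE 0.14), with Col7a1 at 0.34 and Col14a1 at -0.44. Other basement membrane genes held 1 of 8, the tubulointerstitial nephritis antigen Tinag (0.22, SE 0.08), with Lama1 at 0.19 and Pxdn, a peroxidase that crosslinks type IV collagen, at -0.25.

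Other proteoglycans and matricellular genes held 0 of 14 at an unadjusted p under 0.05 in limma. Vtn, vitronectin, a matrix and plasma glycoprotein made in liver, had the largest difference there at 1.59 (SE 0.70). The liver-type transcripts were all tested, 9 of 9. Fgg and Serpina1 entered only through the treated group, being well above background on 2 of 3 control and 3 of 3 treated arrays. The other liver-type transcripts were all positive, from 0.22 (SE 0.50) for Apoh to 3.08 (SE 0.98) for Ttr. The part of the liver-type transcripts in the value of Vtn was not tested. Thbs2, a thrombospondin, had a difference of 0.30 (SE 0.14) and Spp1, osteopontin, one of 0.48 (SE 0.25).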

How the data were processed

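Cy3-labelled total RNA was hybridised to single-colour Agilent arrays (design 045522), per the labels' protocols. Each deposited scanner table lists the intensity of every spot, made with Agilent Feature Extraction 10.7.1.1 and background-subtracted by it, per the file headers, whose grid names build rn4; the submitters' processing notes name version 10.7. The deposited series table holds intensity values that equal each array's processed signal over its 75th percentile (column medians 0.102 to 0.112). Of 62976 spots, 1439 controls and 84 spike-in probes were left out, and 61453 analysed, of which 28206 received a symbol by unversioned accession (RefSeq, GRCr8).

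The processed signal was put on a log2 scale, each array was centred on its own 75th percentile, and groups were compared with lmFit and eBayes (R 4.3.3 with limma 3.58.1; degrees of freedom 4 residual plus 2.04 prior), two-sided, Benjamini-Hochberg over all features. Outlier spots, 1 to 11 per array, were set to missing. A gene was its probe of highest mean signal. Tested features had to be well above background throughout 1 group or both. The fit was run on simulated data with independent noise. These held no slide or scan day effect, so they say nothing about such effects here. Members and lists were chosen with earlier results of these data known. Per-array values are given for matrix genes at an unadjusted p under 0.05, the 2 of smallest p per role and 9 set genes; up to 3 genes of smallest p per further list are named, mostly by difference and SE. List counts over genes above background on all 6 arrays were added after seeing the data. Promoter windows were found for 24 members.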

Additional observations from a re-analysis of the deposited data

How the results depend on the processing

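Under all 21 alternative fits 0 matrix genes passed an adjusted p of 0.05 in limma, with the smallest adjusted p per fit between 0.0771 and 0.823. The normexp alternative used the median spot signal, a choice made after seeing the data. Depth of signal limited Lum and Postn. Features passing numbered 5 with normexp, 5 with median centring, 2 without a filter, 2 with scan day as a fixed block and 17 with trend and robust. They numbered 0 with slide as a fixed block and 0 when slide 3 was dropped, both with 2 residual degrees of freedom (3515 at an unadjusted p under 0.05 in limma for each). With the replicate block 0 passed (3465 at an unadjusted p under 0.05 in limma, 2 residual degrees of freedom), and 4 matrix genes stayed at an unadjusted p under 0.05. The correlations of same-numbered deviations were -0.19, 0.26 and 0.16, and not every array correlated best with its own number. These correlations are mixed with slide, which control replicate 2 and dibromoethane replicate 2 share. They cannot settle whether the numbers pair the animals. Median centring left 4 matrix genes without overlap (15.3% of all features). Quantile normalization and the deposited series table each left 5 (18.6% and 19.5% of all features). Each probe by itself gave 9 probes at an unadjusted p under 0.05 in limma (11.3% of all probes tested) and 11 without overlap (19.4%). The median of the glycoprotein group was 0.092 without a filter and -0.029 when probes were averaged. All features were positive in 46.4%, and in 38.7% with median centring. The matrix genes were positive in 12 of 28, 15 of 28 with quantile normalization and 11 of 28 with median centring. Leaving out 1 array gave 1 to 8 features passing, 1 to 6 matrix genes at an unadjusted p under 0.05, 7 to 12 without overlap (25.7% to 33.3% of all features, since fewer arrays overlap less) and a glycoprotein median of -0.032 to 0.11. Features passing fell to 1 without control replicate 2 or dibromoethane replicate 1 or 2, and to 4 without control replicate 1. Matrix genes at an unadjusted p under 0.05 in limma numbered 1 without dibromoethane replicate 3, 2 without control replicate 1 and 6 without control replicate 3, beside 8.51%, 9.06% and 11.5% of all features.

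Col1a1, Col15a1, Dcn and Mmp2 kept their sign in all 21 fits. This was not particular to them, since Lamc1, Timp1, Tgfb1 and Acta2, among others, also kept theirs. Some fits could not change a sign, as they left each gene's difference at its main value. These were the 2 other filters on dim probes, the scan day and replicate blocks, and trend and robust. Taking each probe by itself was another, since a gene was then read at its brightest probe. The deposited series table holds nearly the same values, so it could hardly change a sign. Dropping slide 3 repeated the differences of slide as a fixed block. Signs turned for genes near 0. Fn1 was 0.016 with normexp, 0.0071 with quantile normalization and 0.022 with array weights, Col18a1 and Sparc were 0.016 and 0.057 with quantile normalization, and Loxl1 was -0.0045 with median centring. With probes averaged Col5a1 was -0.27, Col4a4 0.013 and Bgn -0.12. With slide as a fixed block, and equally without slide 3, Col4a4 was 0.073, Col18a1 0.032, Lama5 0.063 and Sparc 0.027, and with slide as a random block Col4a4 was 0.001 and Col18a1 0.0085. With array weights Col3a1 was 0.081, Col6a2 0.030 and Timp3 -0.0058. Leaving out 1 array gave ranges of -0.18 to 0.12 for Col3a1, -0.17 to 0.10 for Col6a2, -0.14 to 0.039 for Col4a4, -0.060 to 0.030 for Col18a1, -0.20 to 0.011 for Lama5, -0.15 to 0.014 for Lamb2, -0.076 to 0.026 for Fn1, -0.11 to 0.013 for Sparc, -0.066 to 0.17 for Loxl1 and -0.037 to 0.096 for Timp3. The cause was not tested.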

Other observations

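Ratios within an array were taken for 4 pairs of matrix genes, chosen after their values were seen, and compared between groups with a two-sided exact permutation test, whose smallest possible p with 3 arrays against 3 is 0.1. The log2 ratio of Col1a1 over Col1a2, the chains of type I collagen, was -2.84, -3.02 and -2.63 in controls and -2.24, -2.19 and -2.11 in treated rats. Every treated array was above every control, a difference of 0.66 (exact p = 0.1, adjusted over the 4 pairs 0.1), with 0.74 within slide 1 and 0.40 within slide 2. Since the pairs were picked for their values, the test supports nothing, and a ratio of probes does not give the amounts of the chains. Col1a1 over Col3a1 differed by 0.49 in the same way (0.59 within slide 1, 0.28 within slide 2).

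The log2 ratio of Mmp2 over its inhibitor Timp2 was -3.39, -3.21 and -2.76 in controls and -2.14, -2.44 and -1.98 in treated rats, a difference of 0.94 without overlap (0.86 within slide 1, 0.62 within slide 2). Mmp2 over its activator Mmp14 differed by 0.95 without overlap (1.24 within slide 1, 0.20 within slide 2). All 4 pairs gave an exact p of 0.1, adjusted 0.1.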
